A study of Rattus norvegicus with 10 samples.

Results

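The fibrillar collagen genes Col1a1, Col1a2, Col3a1, Col5a1 and Col5a2 were read in cavernosal tissue of the rat penis by every array probe set whose annotation named one of them as its only gene. They are 5 of 10411 genes named in this way, and had 9 probe sets among 15866, 1 for Col3a1 and a pair for each of the other 4 genes, and all 9 passed the filter on dim values. The tissue came from F344 rats, an inbred strain, in 2 groups of 5 samples. Control rats formed one group. The other held rats labelled as diabetic for 10 weeks after streptozotocin, which destroys the insulin-making cells of the pancreas. Each sample was 1 Affymetrix RAE230A array, and the design asks which transcripts differ in diabetes. The labels do not say that the samples came from separate animals, so the tests measure only the spread between samples, which may be in part technical.

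Fibrillar collagens are secreted as procollagen chains that wind into a triple helix, lose their end propeptides and assemble into the fibrils that give tissue its tensile strength. Col1a1 and Col1a2 encode the chains of type I collagen, the main fibril former, and Col3a1 encodes the chain of type III collagen, which joins type I in compliant tissue. Col5a1 and Col5a2 encode chains of type V collagen, which lies within type I fibrils, starts their assembly and limits their width. In the penis, collagen fibrils form the tunica albuginea and much of the trabeculae around the blood spaces.

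All 9 probe sets lay lower in diabetic tissue, most in type I, less in type III and least in type V. On the log2(intensity + 16) scale used for every difference here, the type I probe sets stood at 19.5% to 28.5% of their control level, Col3a1 at 39.1%, and the type V probe sets at 46.5% to 58.9%. In all 4 type I probe sets and in Col3a1 every diabetic array read below every control array, whereas in the 4 type V probe sets the groups overlapped. By limma, 1 of the 9 passed the threshold of 0.05 on the adjusted p, a Col1a1 probe set that fell, against 0.423% of 9683 probe sets called in either direction and 0.207% called lower. The other 8 had adjusted p between 0.0554 and 0.0968. Complete separation of the groups with diabetic lower was found for 5 of the 9 and for 1.53% of all probe sets tested. An unadjusted p under 0.05 with diabetic lower was found for 9 of the 9 and for 7.43% of all. A difference of at least 1 on the log2 scale, which is a halving, was found downwards for 6 of the 9 and for 0.496% of all. The median difference was -1.35 on the log2 scale over the 9 and 0.05 over all probe sets tested.

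Some control arrays stood apart before any comparison. Array medians lay between 116.8 and 131.4, and pairs of control arrays correlated across probe sets at 0.774 to 0.974, against 0.956 to 0.972 for diabetic pairs. Controls 1 and 2 carried few epithelial transcripts and, as the only arrays, strong bone transcripts. Bglap, which encodes the bone matrix protein osteocalcin, read 391.9 and 806.1 in these controls. It read 1.4 to 1.8 in controls 3 to 5 and 1.3 to 2.3 in the diabetic arrays. Ibsp, bone sialoprotein, read 129.6 and 267.6 in this pair, and 3.4 to 7.3 in the other 8 arrays. The brightest probe sets of the 10 bone and cartilage markers on the array summed to 1458 and 2617 in controls 1 and 2, to 545.8 to 1012 in controls 3 to 5, and to 518.2 to 953.0 in diabetic arrays, and none of them read 0 on any array. Since bone and cartilage hold fibrillar collagens, the differences are also given without this pair of controls, which was chosen as an alternative with the data in view. Skeletal muscle markers summed to 96718 to 118928 in control and 77630 to 105707 in diabetic arrays, and smooth muscle markers to 12823 to 16460 and 13798 to 18208, over 16 and 10 genes tested. All 16 skeletal muscle markers lay lower in diabetic tissue. Of the smooth muscle markers 7 lay higher and 3 lower, among them Des, the brightest, at 5026 ± 1180 and 4348 ± 712 (SD). None of these was called.

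**Figure D1:**
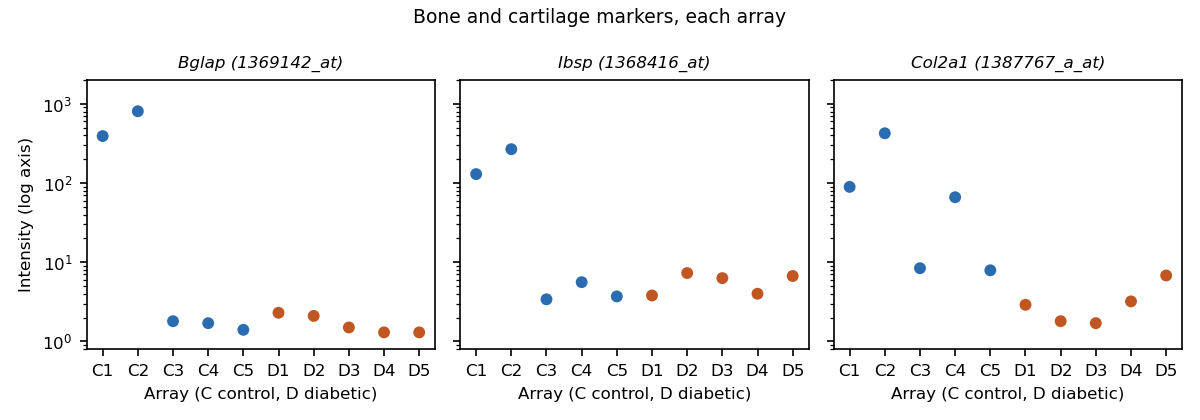
Intensity of Bglap, Ibsp and one Col2a1 probe set on each array, on a log axis, with control arrays C1 to C5 in blue and diabetic arrays D1 to D5 in orange. Bglap and Ibsp were bright in controls 1 and 2 alone, and this Col2a1 probe set was brightest in control 2, at 424.9.

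Col1a1 encodes the more abundant chain of type I collagen, and its probe sets are 1388116_at, the brighter, and 1370864_at. By 1370864_at, controls 1 to 5 read 3773.5, 4749.6, 3868.7, 2572.2 and 3027.7, and diabetics 1 to 5 read 362.7, 1071.9, 288.5, 769.1 and 1562.1. Diabetics 1 and 3 were the lowest, diabetic 5 the highest of its group, and the highest diabetic array stood below the lowest control. Its mean intensity fell from 3598 ± 838 to 810.9 ± 526 (SD, n = 5 per group). The change on the log2 scale was -2.36 ± 0.41 (SE), with a limma adjusted p of 0.0491. By 1388116_at, controls read 7816.9, 9357.4, 8298.1, 5343.4 and 6937.7, and diabetics 804.5, 2902.8, 811.6, 2243.6 and 4165.5. The diabetic arrays kept nearly the same order and the groups again did not overlap, at a log2 difference of -2.05 ± 0.43 that missed the threshold (adjusted p = 0.0658). The gap between the Col1a1 probe sets was itself wider in diabetic arrays. The log2 value of 1370864_at minus that of 1388116_at was -1.07 ± 0.08 in control and -1.38 ± 0.16 in diabetic arrays (SD; exact permutation p = 0.0159, adjusted over the 4 genes with a pair of probe sets 0.0476). This comparison within genes was added after the values were seen. It gave -0.19 for the dimmer minus the brighter Col1a2 probe set (exact permutation p = 0.0238, adjusted 0.0476), and it did not pass for Col5a1 or Col5a2 (adjusted p = 0.127 and 0.492).

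Col1a2 encodes the other chain of the type I molecule. By 1370155_at, the brighter probe set, controls 1 to 5 read 6378.6, 7256.6, 6135.6, 4898.1 and 6213.6, and diabetics 1 to 5 read 873.6, 2627.5, 907.2, 2217.2 and 3354.9. Control 4 was the lowest control, as for Col1a1, and diabetics 1 and 3 again stood below the other diabetic arrays. The log2 difference was -1.81 ± 0.36 (adjusted p = 0.0591), and by 1387854_at, which read 4266 ± 684 and 1222 ± 694 (SD), it was -2.00 ± 0.38 (adjusted p = 0.0554). In both type I genes the spread lay in the diabetic group. The SD of the log2 values was 0.20 to 0.34 over control and 0.89 to 1.07 over diabetic arrays, and the highest diabetic array read 3.84 to 5.41 times the lowest.

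A stretch upstream of Col1a2 is shown because it holds 2 of the 6 motifs searched in the 250 bases before the annotated start. It is the reference sequence of RefSeq, build GRCr8, at chr4:33518307-33518406 on the plus strand, 250 to 151 bases before the start. Capitals mark ATTGG, which is CCAAT read on the other strand, and TATAAA.
Col1a2: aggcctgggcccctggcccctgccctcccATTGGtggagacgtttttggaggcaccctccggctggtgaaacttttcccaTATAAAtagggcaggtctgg
CCAAT on either strand was found in 34.0% and TATAAA in 12.9% of 33469 promoter windows of the same length, and these matches do not overlap. RefSeq windows were matched for 3 of the 5 genes, Col1a2, Col5a1 and Col5a2.

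Col3a1, the only gene of type III collagen, has 1 probe set, 1370959_at. Controls 1 to 5 read 5563.5, 6147.7, 4501.3, 3610.8 and 2881.2, and diabetics 1 to 5 read 1288.4, 2031.8, 1048.1, 2217.2 and 2336.5. The lowest control, control 5, read 1.23 times the highest diabetic, diabetic 5, so the groups were separated by a narrow margin. The means were 4541 ± 1350 and 1784 ± 579 (SD, n = 5), with a log2 difference of -1.35 ± 0.27 (adjusted p = 0.0591). Unlike the type I genes, Col3a1 spread about as widely in control as in diabetic arrays, with log2 SDs of 0.45 and 0.51.

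Col5a1 encodes a type V chain that type V molecules of most tissues share. By 1376099_at, the brighter probe set, controls 1 to 5 read 759.1, 894.2, 588.3, 636.9 and 402.4, and diabetics 1 to 5 read 390.3, 380.6, 285.6, 409.1 and 385.3. Control 5 fell within the diabetic range, and 4 of 5 diabetic arrays lay below it. The log2 difference was -0.76 ± 0.19 (adjusted p = 0.0968), and by 1369955_at, which read 248.1 ± 89.3 and 104.9 ± 35.8 (SD), it was -1.10 ± 0.26 (adjusted p = 0.0928). Col5a2 encodes the partner chain. By 1370895_at, controls read 1636, 1686.5, 1187, 1309.5 and 667.8, and diabetics 592.9, 673.2, 512.8, 761 and 628.7. Control 5 again lay among the diabetic arrays, and the difference was -0.96 ± 0.23 (adjusted p = 0.0943). The other Col5a2 probe set, 1373463_at, read 1186 ± 343 and 613.1 ± 95.2 (SD), a difference of -0.90 ± 0.21 (adjusted p = 0.0818). In type V the spread lay mostly in the control group. Log2 SDs were 0.42 to 0.53 over control arrays, and over diabetic arrays 0.20 to 0.23, except for the dim Col5a1 probe set 1369955_at with 0.42.

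A stretch upstream of Col5a2 is also shown, and holds neither of the motifs marked for Col1a2. It is the RefSeq GRCr8 reference at chr9:55090202-55090301 on the minus strand, 150 to 51 bases before the annotated start, with CAGACA in capitals.
Col5a2: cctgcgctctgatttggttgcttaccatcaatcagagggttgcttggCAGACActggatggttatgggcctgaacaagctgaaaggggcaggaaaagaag
CAGACA on either strand was found in 17.2% of all windows. The window of Col5a1 held 1 match, GGGCGG at 127 bases before the start, a motif found in 30.5% of windows. TGACTCA (4.05% of windows) and CACGTG (5.59%), the other motifs searched on both strands, were not found in these 3 windows. Whether any motif bears on the differences was not tested.

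**Figure D2:**
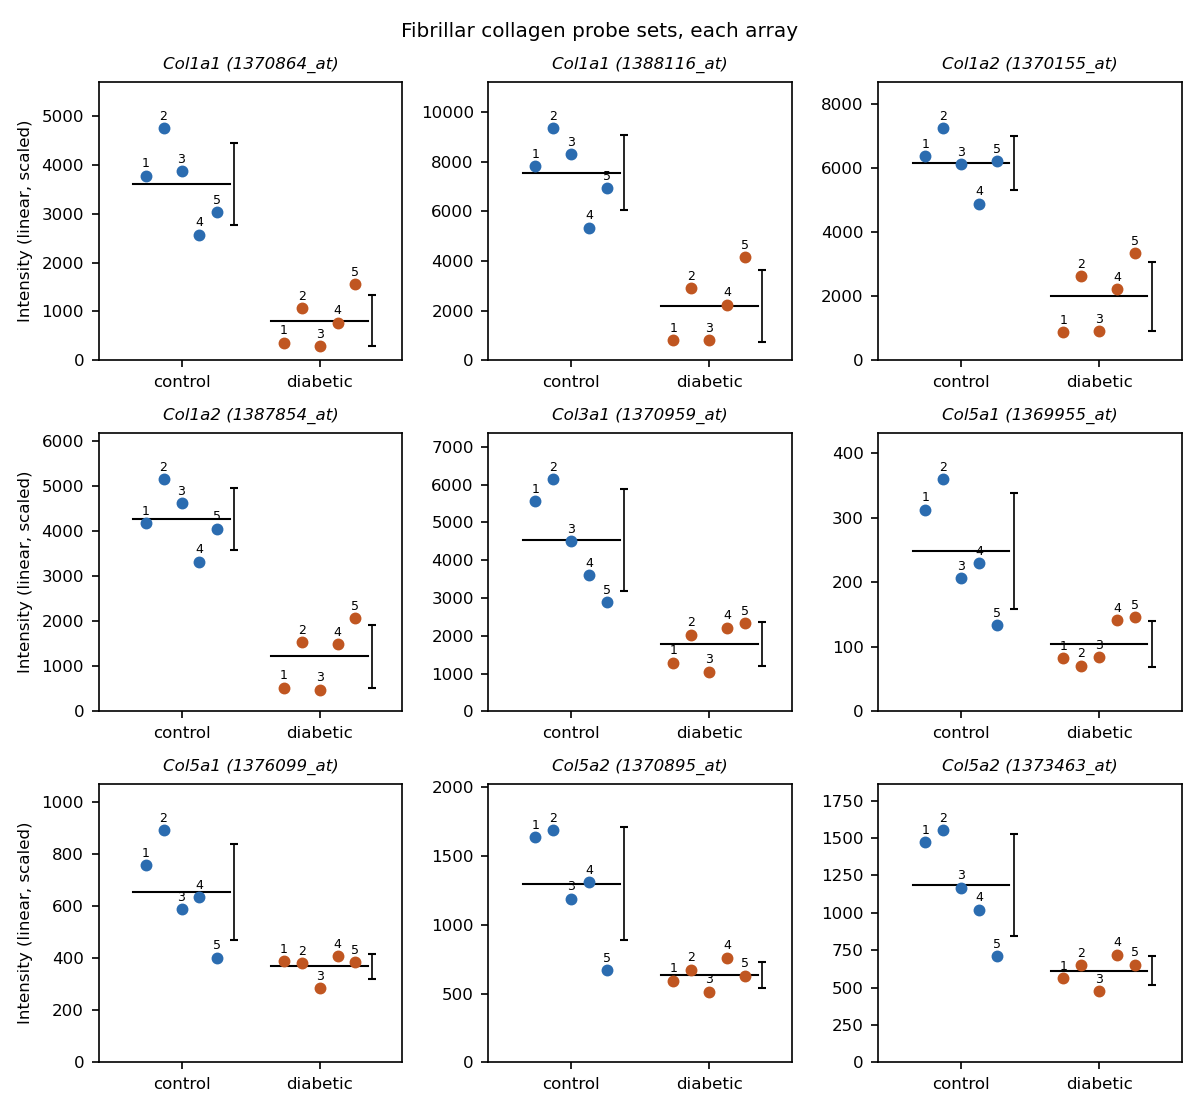
Intensity of the 9 probe sets, 1 panel each on a linear axis from 0, with points numbered by array, a line at the group mean and a bar of 1 SD beside it. The diabetic arrays lie below all controls in the Col1a1, Col1a2 and Col3a1 panels, whereas control 5 lies within the diabetic range in the Col5a1 and Col5a2 panels.

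Pooled over both groups, the members correlated most closely within type I and within type V. With the group means taken off, the log2 values over the 10 arrays correlated at 0.99 between Col1a1 and Col1a2 and at 0.95 between Col5a1 and Col5a2, each by its brightest probe set. Between a type I and a type V gene the correlation was 0.28 to 0.33, and Col3a1 stood between them, at 0.79 and 0.81 with the type I genes and 0.78 and 0.79 with the type V genes. These are descriptions over 10 arrays that all members share, and the pairs of probe sets of one gene correlated at 0.81 to 0.99 in the same way. The log2 SD was 0.31 over control and 1.07 over diabetic arrays for Col1a1 1388116_at, and 0.53 and 0.21 for Col5a2 1370895_at. Such unequal spread limits how high a correlation pooled over both groups can be. How far this limit accounts for the low values between type I and type V was not tested. Correlations within each group are not given, so the pooled values do not settle whether the patterns differ within a group.

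By their brightest probe sets, the type V genes ordered the control arrays inversely to their epithelial transcripts, as did the other Col5a1 probe set. The other Col5a2 probe set, 1373463_at, broke this order, with control 3 at 1168.5 above control 4 at 1022.0. The epithelium list, which includes keratins, claudins and cadherin 1, averaged 5.85, 5.81, 9.08, 7.59 and 9.57 in controls 1 to 5 (mean log2 value of the 14 genes tested of 15 listed) and 9.49, 9.65, 9.60, 8.62 and 8.85 in diabetics 1 to 5. Its summed intensity ran from 705 to 14933 in control and from 6985 to 14893 in diabetic arrays. Type V was highest in controls 1 and 2, where these markers were lowest, and lowest in control 5, where they were highest. The fibroblast list mean was also highest in controls 1 and 2, at 9.34 and 9.11, and lowest in control 5, at 8.31. Col1a1 did not order the controls in this way. By its brighter probe set control 4, with a middle epithelial mean, was the lowest at 5343.4, and control 3, with the second highest mean, stood second from the top at 8298.1. Controls 3 and 5 had epithelial means near those of the diabetic arrays and differed in type V. For Col5a2 control 5 read 667.8, within the diabetic range of 512.8 to 761, and control 3 read 1187, above it. For Col5a1 control 5 read 402.4, within the diabetic range of 285.6 to 409.1, and control 3 read 588.3, above it. The part of the markers in these differences was not tested beyond the covariate fits given next.

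**Figure D3:**
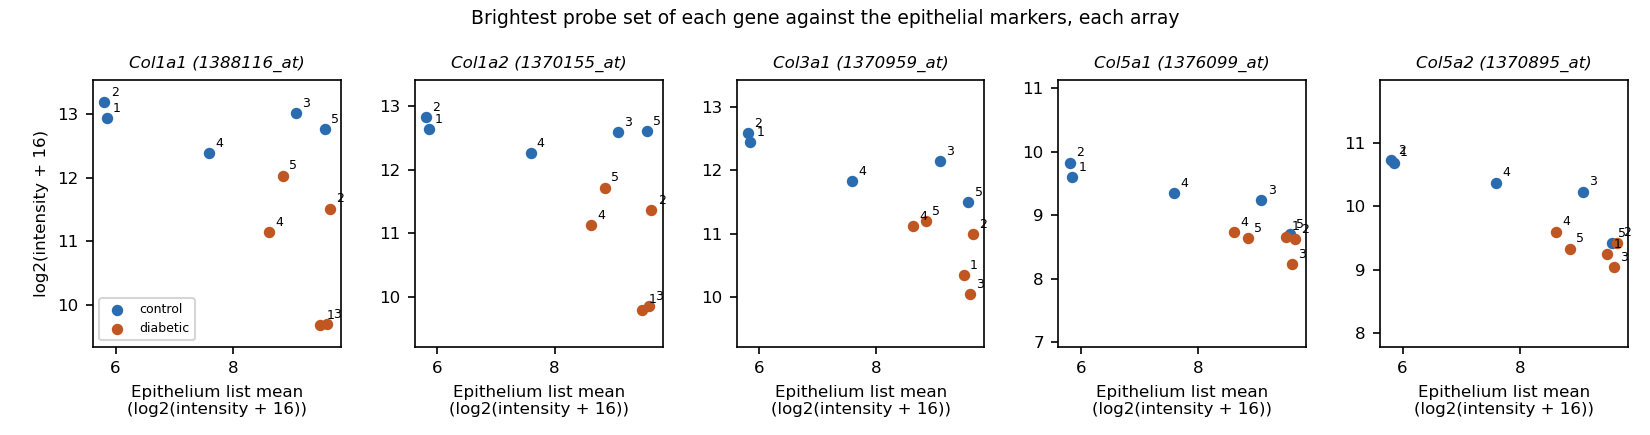
Log2 value of the brightest probe set of each gene against the epithelium list mean, each point 1 array with its replicate number, control in blue and diabetic in orange, with vertical axes of equal span. Of the controls with list means above 9, control 5 sits within the diabetic range for Col5a1 and Col5a2 and control 3 above it, and both sit above all diabetic arrays for Col1a1, Col1a2 and Col3a1.

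As a share of the difference over all arrays, type V moved more than type I without controls 1 and 2 and with each of 3 marker lists as a covariate. Without controls 1 and 2, Bglap and Ibsp read below 8 on every array, and the type I probe sets stood at -2.18, -1.91, -1.71 and -1.91 (Col1a1 1370864_at and 1388116_at, Col1a2 1370155_at and 1387854_at), which is 92.5% to 95.4% of the difference over all arrays. Col3a1 stood at -1.08 ± 0.28 and the type V probe sets at -0.52 to -0.78, which is 79.5% and 67.8% to 70.9%, and all 9 had adjusted p between 0.27 and 0.471. Control 4 still read 183.8 for Acan 1387355_at and 66.2 for Col2a1 1387767_a_at, cartilage markers, against diabetic highs of 109.0 and 6.8. Controls 3 and 5 also read above these highs, at 145.4 and 132.4 for Acan and 8.4 and 7.9 for Col2a1. By Col2a1 1371226_at control 4 read 83.0, within the diabetic range of 79.4 to 99.0, and controls 3 and 5 read 32.4 and 65.9, below it. By Acan 1368836_a_at control 4 read 114.3, above the diabetic high of 62.1, and controls 3 and 5 read 52.5 and 30.6, below that high. Without controls 1, 2 and 4, type I kept 98.3% to 102% of its difference, Col3a1 79.4% and type V 51.3% to 64.2%. With the epithelium list mean as a covariate, also chosen with the data in view, type I kept 88.8% to 90.6% of its difference, Col3a1 69.9% and type V 51.9% to 58.0% (adjusted p 0.12 to 0.282). With the skeletal muscle list mean, which was lower in diabetic arrays, they kept 73.3% to 78.3%, 66.4% and 38.2% to 68.7% (adjusted p 0.991 to 0.999). Unadjusted limma p was then 0.00742 to 0.0265 for type I, 0.0222 for Col3a1 and 0.0551 to 0.0975 for type V. In log2 units this last fit moved type I more than 3 of the 4 type V probe sets, with Col1a1 1388116_at at -1.50 and Col5a1 1376099_at at -0.52. With the mean of the fibroblast list, which holds Dcn, Pdgfra, Lum and others, Col1a1 1370864_at stood at -2.34 ± 0.44 (adjusted p = 0.0407) and Col5a2 1370895_at at -0.68 ± 0.12 (adjusted p = 0.0364). All 9 fibroblast markers tested of 12 listed lay lower in diabetic tissue, with a median difference of -0.24, and none was called. They summed to 7240 to 14579 in control and 9415 to 11893 in diabetic arrays, with Dcn the brightest. Fap and Thy1 differed most, at -0.58 ± 0.18 and -0.46 ± 0.21 (SE), and Dcn least, at -0.01 ± 0.15. Dcn, decorin, read 6860 ± 1450 and 6704 ± 548, and Pdgfra 430.6 ± 106 and 359.9 ± 87.3 (SD, n = 5). In such bulk tissue, fewer collagen-making cells and less collagen RNA per cell cannot be told apart.

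**Figure D4:**
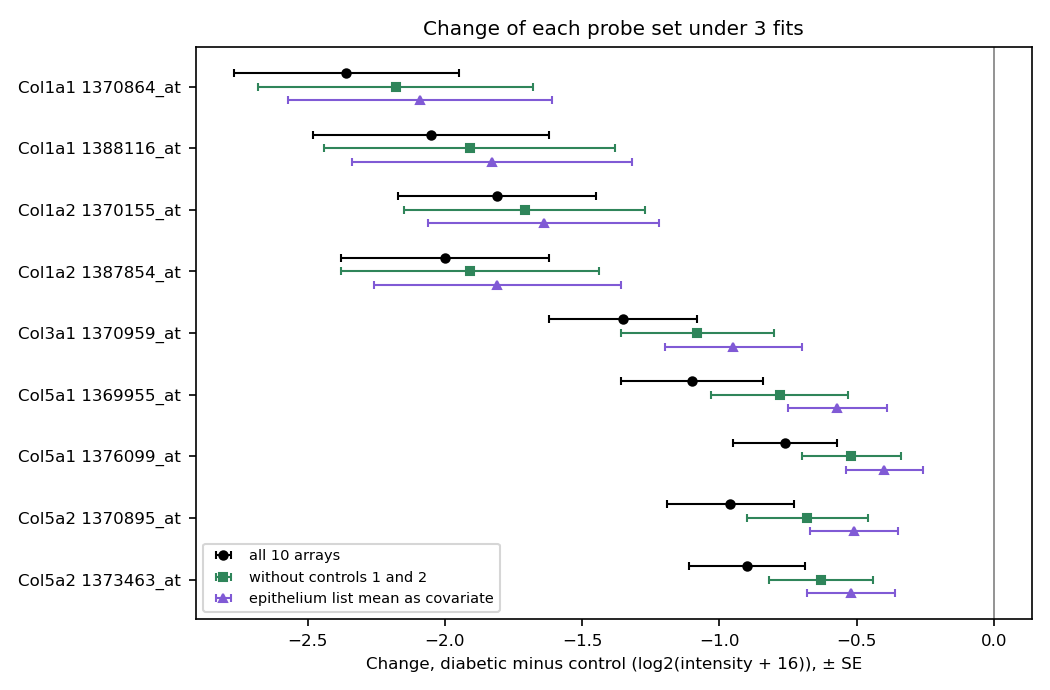
Difference between diabetic and control arrays of each probe set on the log2(intensity + 16) scale with its SE, in black over all 10 arrays, in green without controls 1 and 2, and in purple with the epithelium list mean as a covariate. Differences for Col1a1 and Col1a2 lie between -2.36 and -1.64 in the 3 fits, and those of Col5a1 and Col5a2 between -1.10 and -0.40.

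The single call was lost without any 1 of 8 of the arrays. Leaving out any 1 of controls 1 to 4 or diabetics 1 to 4 put Col1a1 1370864_at at adjusted p between 0.057 and 0.129, while leaving out diabetic 5 kept it at 0.0476 and leaving out control 5 at 0.0147. Leaving out control 5, the control nearest to the diabetic arrays in type V, called all 9 probe sets, with 1068 called over the whole table, and array weights also called all 9, with 2813 in all. With scan day or fluidics station as a block limma called 0 probe sets in the whole table, with 1119 and 1483 at an unadjusted p under 0.05. Col1a1 1370864_at then stood at -2.05 (adjusted p = 0.128) and -1.94 (adjusted p = 0.234). Its unadjusted limma p was 0.000132 without a block, 6.28e-05 with scan day and 0.00283 with station. For Col5a2 1370895_at these were 0.00161, 0.00988 and 0.0105. Within scan days 1, 2 and 3 Col1a1 1370864_at stood at -1.64, -2.77 and -1.95, Col3a1 at -0.97, -1.48 and -1.20, and Col5a2 1370895_at at -0.62, -1.12 and -1.02. By station, 1 before 2, the same probe sets gave -1.81 and -2.07, -1.17 and -1.14, and -0.84 and -1.06. Station nearly followed group. All controls except control 4 were run on station 1, and all diabetic arrays except diabetic 2 on station 2. Each difference within a station thus sets 4 arrays against 1, and the station block cannot cleanly part station from group. On scan days 1 and 2 the diabetic side was also 1 array. Day 2 and its pair of arrays, control 4 and diabetic 1, gave the widest type I gap, and diabetic 3 was alone on day 4.

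Whether the genes changed unequally was tested by the log2 difference of their brightest probe sets within each array, over 10 pairs of genes. Col1a1 minus Col5a1 moved by -1.29 ± 0.47 (SE) from control to diabetic, with diabetics 1 and 3 farthest from the controls, and its exact permutation p was 0.0317. Col1a2 minus Col5a1 moved by -1.05 ± 0.40 (exact p = 0.0317), Col3a1 minus Col5a1 by -0.59 ± 0.19 (exact p = 0.0159), and Col1a1 minus Col1a2 by -0.24 ± 0.10 (exact p = 0.0714). After adjustment over the 10 pairs none passed (adjusted p 0.102 to 0.127, where the smallest unadjusted p that 5 against 5 arrays allow is 0.00794), and in every pair the groups overlapped. Without diabetic 5, 7 of the 10 pairs passed, each at adjusted p = 0.0454, and Col1a1 minus Col5a1 then moved by -1.58. The steeper difference of type I than of type V is therefore a description of these arrays.

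**Figure D5:**
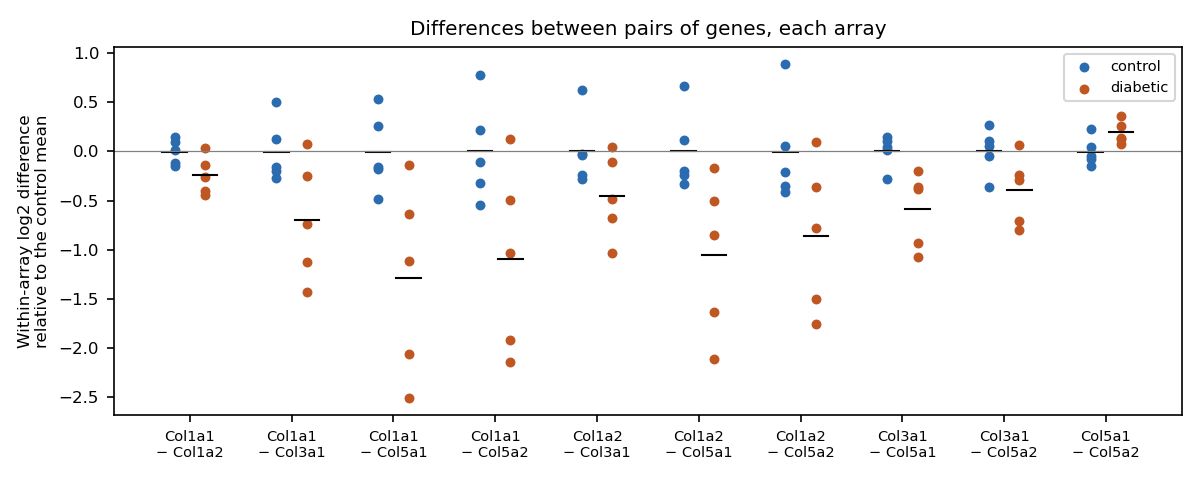
Within-array log2 difference between the brightest probe sets of each pair of genes, relative to the control mean of that pair, with 1 point per array and a line at the group mean. Diabetic means lie below 0 in 9 pairs and above 0 for Col5a1 minus Col5a2, and points of the groups overlap in all 10.

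Genes most like each member were found by the correlation of log2 values over the 10 arrays with the group means taken off, a description with no test. For Col1a1 they were Ryk, a Wnt receptor (0.91), Zfp580 (0.90) and Brinp1 (0.88), and the same 3 genes were the most alike for Col1a2. Ryk read 422.4 to 531.8 in control and 301.5 to 421.5 in diabetic arrays, with diabetics 1 and 3 lowest as in type I, and a difference of -0.38 ± 0.12 (adjusted p = 0.176). Zfp580 and Brinp1 were dim and followed type I only within the groups, with differences of 0.03 ± 0.13 and 0.15 ± 0.11. For Col3a1 they were Mmp2, the gelatinase that digests denatured collagen (0.94), Slc35e4 (0.92) and Pcolce, which speeds removal of the procollagen C-propeptide (0.91). For Col5a1 they were Stmp1 (0.99), Snx3 (0.97) and Nvl (0.97), whose group differences were small, at 0.06 ± 0.18, -0.14 ± 0.11 and 0.09 ± 0.11. For Col5a2 they were Ctsk, the collagen-degrading protease cathepsin K, Serpinb6a and Ecm1 (each 0.98). Ctsk read 938, 967.8, 584.3, 607.5 and 276 in controls 1 to 5 and 176.5 to 357.3 in diabetic arrays, with control 5 among the diabetic arrays as in type V.

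The rest of the fibrillar family was sparsely read. Of 5 other fibrillar collagens listed, 2 were tested and 0 called by limma, with Col27a1 at -0.05 ± 0.14 and Col2a1, of cartilage, at 0.28 ± 0.24 by 1371226_at. Col11a1, whose chain can assemble with type V chains, missed the filter since 4 arrays exceeded it, and is named after its values were seen. By the brighter of its 2 probe sets, 1384211_at, controls read 197.9, 257.4, 111.4, 184.3 and 79, and diabetics 32.9, 47.1, 33.1, 69 and 37.1. The groups did not overlap, controls 1 and 2 with the bone markers were the highest, and in the fit without a filter it stood at -1.54 ± 0.28 (adjusted p = 0.0682). The other, 1384931_at, read 1.3 to 11.7 in control and 1.4 to 7.4 in diabetic arrays, with overlapping groups and a difference of -0.11 ± 0.14. Col11a2, also below the filter, stood at -0.10 ± 0.18. A dimmer Col2a1 probe set that also missed the filter read 89.4 and 424.9 in controls 1 and 2. Its other control values ran from 7.9 to 66.2 and its diabetic values from 1.7 to 6.8, so the groups did not overlap. In the fit without a filter this probe set, 1387767_a_at, stood at -1.95 ± 0.68 (limma adjusted p = 0.264), opposite in direction to 1371226_at.

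Genes that process, bind, degrade or regulate fibrillar collagen were counted from 4 further lists, each gene by its brightest probe set. Among crosslinking and fibril-bound proteins 1 of 17 tested fell and 0 rose, all 17 lay lower, and the median was -0.44. The one was Lox, lysyl oxidase, which starts the covalent crosslinking of fibrils. It read 586.6 ± 163 and 238.9 ± 26.5 (SD, log2 change -1.20 ± 0.19, adjusted p = 0.0373), and without controls 1 and 2 it stood at -1.0 (adjusted p = 0.236). Its call was also lost without any 1 of controls 1 to 4 or diabetics 1 to 5 (adjusted p 0.0535 to 0.114). Sparc, a collagen-binding matrix protein, stood at -1.19 ± 0.27 (adjusted p = 0.077) and Fn1, fibronectin, at -0.90 ± 0.21 (adjusted p = 0.0835). Among folding, modification and propeptide removal genes 0 of 16 were called and the median was -0.07, with Pcolce at -0.79 ± 0.20, the collagen chaperone Serpinh1 at -0.69 ± 0.23 and the C-proteinase Bmp1 at -0.38 ± 0.13. Among breakdown genes and inhibitors 0 of 10 were called and the median was -0.17, with Ctsk at -1.32 ± 0.32 (adjusted p = 0.094), the fibroblast peptidase Fap at -0.58 ± 0.18 and Mmp2 at -0.60 ± 0.22. Among transcription factors and signals 0 of 16 were called and the median was 0.00, with the growth factor Tgfb3 at -0.48 ± 0.11, Smad4, which carries TGF-beta signals to the nucleus, at 0.50 ± 0.12 and Igf1 at -0.47 ± 0.20. Over the 5 lists together limma called 1 of 61 tested genes lower and 0 higher, against 0.207% of all probe sets called lower. Without control 5, 17 of the 61 were called, and without any 1 of the other arrays 0 were.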

How the data were processed

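Per the labels, 1 Affymetrix RAE230A array measured each of 5 control and 5 diabetic samples, numbered in order of deposit. The deposited table holds linear intensities, and each array's mean without the outer 2% lay between 250.055 and 250.065, as after scaling by the authors to one trimmed mean. The sources used here name no software, and detection calls were not used. Per the file headers, other array records hold the scan day (4) and station (2). The table's 57 control probe sets, of 15923, were dropped. Symbols were updated by Entrez identifier to RefSeq names.

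Values under 1 were raised to 1 before log2(intensity + 16) was taken, so changes of dim probe sets are understated. Probe sets above 85.9, the 40th percentile, on at least 5 of 10 arrays were tested (9683), with limma 3.58.1 in R 4.3.3 (intensity trend, two-sided, Benjamini-Hochberg over all, threshold 0.05). The fit was tested on simulated data. Pairs used two-sided exact permutation tests in scipy 1.17.1. The number of arrays limits precision. All member probe sets are named, with the called and the 3 lowest-p genes of each list and the 3 genes most alike. Members, lists, tests and the comparison of probe sets within a gene were chosen with earlier results of these data known.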

Additional observations from a re-analysis of the deposited data

Results flagged for a closer look

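In 3 cases 1 array lay far from the other 4 of its group, by Dixon's criterion, among 66 groups of 5 values tested, and chance flags about 1 in 20 groups. Col5a1 by 1376099_at stood at 8.24 on the log2 scale in diabetic 3, against 8.63 to 8.73 in the other diabetic arrays. Fap stood at 7.42 in diabetic 4, against 6.81 to 6.97. The log2 value of Col1a2 minus that of Col3a1 was 1.10 in control 5, against 0.20 to 0.45 in the other controls.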

How the results depend on the processing

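All 9 probe sets stayed lower in diabetic tissue in all 25 alternative fits that tested them, from -2.66 to -1.85 for Col1a1 1370864_at and from -0.98 to -0.39 for Col5a1 1376099_at; the stricter filter did not test Col5a1 1369955_at. The number called, 1 as reported, became 2 with median centring, 9 with array weights, and 0 with a pseudocount of 1, no filter, scan day or station as a block, without controls 1 and 2 or 1, 2 and 4, or with the epithelium or skeletal muscle covariate. It became 2 with the fibroblast covariate, and 0 to 9 without single arrays. Over the whole table the 41 calls became 22 with a pseudocount of 1, 26 without a filter, 2813 with array weights, 0 with either block, 21 without controls 1, 2 and 4, 20 with the epithelium and 76 with the fibroblast covariate, and 0 to 1068 without single arrays. They became 0 without controls 1 and 2 and with the skeletal muscle covariate, with 773 and 463 at an unadjusted p under 0.05 by limma. The related genes called, 1 as reported, became 2 with median centring and the fibroblast covariate, 25 with array weights, 0 to 17 without single arrays, and 0 with either block, both sets of controls left out, and the epithelium or skeletal muscle covariate. Pairs that passed, 0 as reported, ran from 0 to 7 without single arrays. Without control 1, diabetic 2 or diabetic 3, 0 were called in all, with 1126, 1163 and 1303 at an unadjusted p under 0.05. Col27a1 turned from -0.05 to 0.08 with the station block and ran from -0.13 to 0.05 without single arrays, turning without diabetic 4. The cause of these shifts was not tested. The 5 alternatives with covariates or several controls left out were chosen after seeing the data. No paired analysis was possible because the replicate numbers only follow the order of deposit. Intensities carry no detection call, so signal over background is unknown for the dim probe sets.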
